A study of Mus musculus with 2 samples.

Results

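The 39 genes described here encode the enzymes of glycolysis, the carriers that bring glucose and lactate across the cell membrane, the enzymes that pass pyruvate into mitochondria or turn it into lactate, and the core of glycogen metabolism. They were chosen by gene symbol from textbook pathway membership, out of 55536 annotated genes. No expression value entered the rule, though earlier results of these data were known when the genes were chosen. Total RNA was sequenced from hippocampal tissue of 2 female mice, adults of 8 to 10 months, of the strain B6CASTF1/J, an F1 hybrid between C57BL/6J and CAST/EiJ. Animal 1 gave replicate 1 and animal 5 gave replicate 2, and each library was made from 300 ng of RNA with synthetic spike-in transcripts (ERCC). The labels call the tissue a layer of the hippocampus without saying which, and list 1 donor identifier for both samples. Should they come from the same animal, the spread between the libraries would be technical only. The mice received no treatment named in the labels, so there is 1 group and no condition to compare. With 2 libraries no p-value is given, and differences between the animals are described by their size and their counting error.

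Glycolysis splits glucose into pyruvate in the cytosol and yields a little ATP without oxygen. Pyruvate then enters mitochondria through a carrier and is oxidised by the pyruvate dehydrogenase complex, or is reduced to lactate by lactate dehydrogenase. In the brain, astrocytes hold most of the glycogen and are known for strong glycolysis and lactate release, while neurons take up glucose mainly through Slc2a3 and can oxidise lactate. Many steps have isoenzymes that differ between these cell types, such as neuron-enriched Eno2 and astrocyte-enriched Aldoc. In bulk tissue, fewer cells of a type and less RNA per cell cannot be told apart.

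Markers of the hippocampal cell types were present in both libraries. All 3 markers of excitatory neurons were detected, led by Nrgn at 577 and 682 TPM. TPM is a level per transcript length relative to all transcripts of a library, and wherever a pair of values is given the former is that of replicate 1 and the latter that of replicate 2. The 4 astrocyte markers summed to 1220 and 1276 TPM and the 3 oligodendrocyte markers to 1324 and 1336 TPM. Of the 12 cell types, choroid plexus alone had markers at least 2-fold apart: the sum of the 5 choroid plexus markers was 24.8 TPM in the former and 632 in the latter. Of the skeletal muscle markers, Ckm had 1 and 5 counts.

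Pkm, the gene of muscle-type pyruvate kinase, has a pair of alternative exons. Pkm lies on the plus strand of chromosome 9 at 59656368 to 59679375 (mm10). Its transcripts include either the M1 exon, used in adult muscle and neurons, or the M2 exon, used in proliferating cells and, in brain, mainly in astrocytes. Both are exon 9 of 11, each is 167 bases long, and 372 bases lie between them. The exons are coding, and their sequences, from the GENCODE M21 transcripts, are given below 5′ to 3′ because this exon sets the M1 and M2 forms of the enzyme apart. Capitals mark the 64 positions at which they differ, and the other 103 positions are identical (61.7%).
M1 exon, chr9:59675029-59675195, plus strand: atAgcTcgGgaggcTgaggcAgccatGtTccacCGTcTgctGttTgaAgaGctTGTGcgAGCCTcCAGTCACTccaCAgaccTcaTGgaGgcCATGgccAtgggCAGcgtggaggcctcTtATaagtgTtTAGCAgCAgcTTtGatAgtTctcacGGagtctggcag
M2 exon, chr9:59675568-59675734, plus strand: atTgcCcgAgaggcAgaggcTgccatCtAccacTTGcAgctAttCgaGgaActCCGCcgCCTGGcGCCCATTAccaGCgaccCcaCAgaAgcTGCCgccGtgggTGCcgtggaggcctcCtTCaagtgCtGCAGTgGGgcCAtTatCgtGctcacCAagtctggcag

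By the TPM assigned to its transcripts, Pkm had nearly equal amounts of M1 and M2 message. Pkm-202, the 2041-base transcript with the M1 exon, stood at 328 and 320 TPM. Pkm-201, the 2432-base transcript with the M2 exon, stood at 344 TPM in both. Of the TPM of all transcripts that hold either exon, those with the M1 exon took 48.9% and 48.3%, or 48.6% ± 0.40 (SD, n = 2). M2 was slightly ahead in both animals, and the animals differed by less than 1 percentage point. The second transcript table, another quantification of the same libraries on the same annotation, gave M1 46.4% ± 0.37. The 2 transcripts also differ at their ends. Pkm-201 extends 205 bases further at the 5′ end and 186 further at the 3′ end, and with its exon 22.9% of its bases are absent from Pkm-202. Reads in those ends can be given to Pkm-201 alone, and their part in the M1 share was not tested in either table. The map of the leading Pkm transcripts shows these differences.

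**Figure D1:**
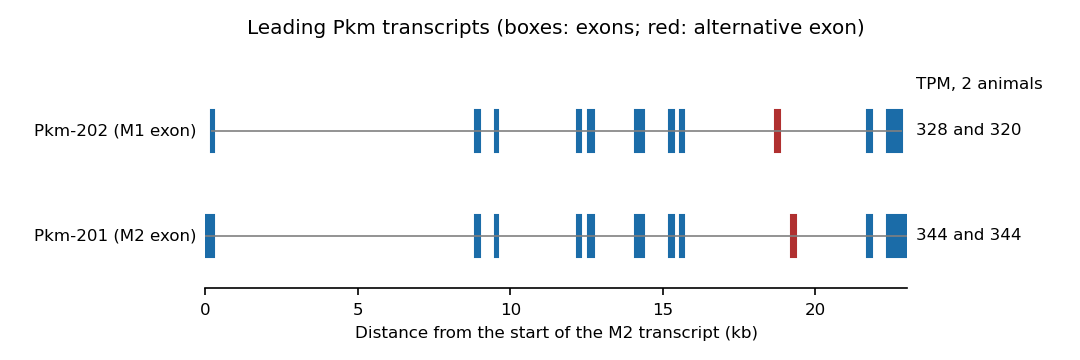
Exons of the leading Pkm transcripts by distance in kb from the start of the M2 transcript Pkm-201, with the TPM of each in replicates 1 and 2 at the right. The transcripts share their inner exons except for the red one, and Pkm-201 reaches further at both ends; the M1 transcript stood at 328 and 320 TPM and the M2 transcript at 344 in both animals.

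All 39 genes were detected, taken as a TPM of at least 1 in both libraries, against 59.1% of the 22015 nuclear protein-coding genes. In 17 of them the level was at least 100 TPM in both animals, a level that 4.27% of nuclear protein-coding genes reached. A further 16 had a mean of at least 10 TPM, and 6 had a lower mean (Gys1, Pfkfb4, Pdk4, Hk2, Gbe1 and Slc16a3). The median over the 39 was 70.3 TPM, and that over all detected nuclear protein-coding genes was 17.5 TPM. Together the 39 genes held 1.55% of nuclear protein-coding TPM in replicate 1 and 1.58% in replicate 2. Of the 100 highest nuclear protein-coding genes, 4 were among them: Gapdh at rank 4, Aldoa at rank 5, Pkm at rank 34 and Eno2 at rank 53. The plot of levels in pathway order shows a plateau of high values over the enzymes of glycolysis and low, more scattered values for transporters and regulators.

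**Figure D2:**
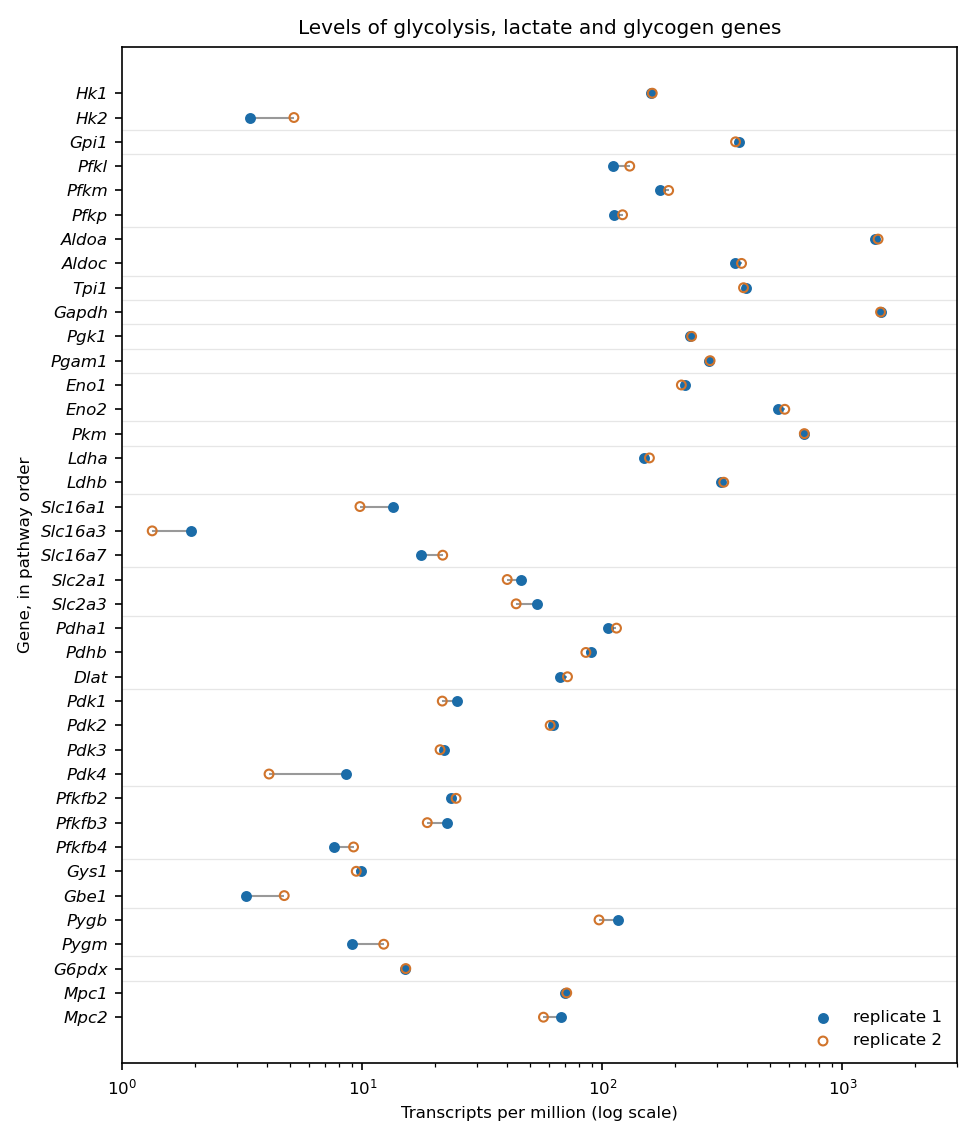
TPM (log scale) of the 39 genes in pathway order, with replicate 1 as filled and replicate 2 as open circles joined by a line. Gapdh and Aldoa lie farthest right at 1446 and 1390 TPM on average, Slc16a3 farthest left at 1.63, and the lines are longest for Pdk4, Hk2, Slc16a1, Slc16a3 and Gbe1.

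The steps of glycolysis did not carry equal amounts of message. Summed over isoenzymes, hexokinase, which traps glucose in the cell, had 165 ± 2.1 TPM (mean ± SD, n = 2, as for all such values). The other early steps, phosphoglucose isomerase and phosphofructokinase, had 365 ± 8.7 and 418 ± 31 TPM. Aldolase, which splits the hexose, had the highest sum in the gene table at 1757 ± 41 TPM. Below it came glyceraldehyde phosphate dehydrogenase at 1446 ± 7.8, enolase at 774 ± 19 and pyruvate kinase at 692 ± 1.4 TPM. The steps between, triosephosphate isomerase, phosphoglycerate mutase and phosphoglycerate kinase, had 392 ± 7.1, 279 ± 2.4 and 234 ± 2.3 TPM. Hexokinase thus had the lowest sum of the 10 steps in both animals. When only transcripts of protein-coding type were summed, an alternative chosen after the data were seen, glyceraldehyde phosphate dehydrogenase came to 443 ± 4.5 TPM. The top step changed in the second transcript table, where glyceraldehyde phosphate dehydrogenase had 1949 ± 0.92 TPM and aldolase 1518 ± 49 TPM, in this order in both animals.

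Hk1, the hexokinase of brain bound to mitochondria, stood at 160 and 161 TPM. Hk2, the form of muscle and fat, stood at 3.41 and 5.18 TPM. Hk1 therefore held 97.4% ± 0.73 of the hexokinase TPM. Its leading transcript, Hk1-202, took 56.7% and 61.5% of the gene's TPM in the first transcript table. Another transcript, Hk1-201, led in the second transcript table with 44.1% and 44.6%.

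Gpi1, the phosphoglucose isomerase, was read at 371 and 358 TPM. The 3 phosphofructokinase genes, which encode the muscle, liver and platelet subunits of the committed step, were all high. Pfkm stood at 173 and 189 TPM, Pfkl at 111 and 130 TPM, and Pfkp at 112 and 121 TPM. Pfkm was the highest of the 3, with 43.3% ± 0.59 of their sum, while the levels of Pfkl and Pfkp were not separated by their spread between animals. Its share was 38.6% ± 1.0 in the second transcript table, where its lead over Pfkl did not exceed the spread.

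Aldoa (chromosome 7, 126795234 to 126800751), the aldolase found in most tissues, stood at 1372 and 1407 TPM. Aldoc, the brain form known from astrocytes and Purkinje cells, stood at 356 and 380 TPM. Aldoa held 79.1% ± 0.47 of the aldolase TPM in these mice. The symbol Aldoa belongs to a second gene identifier as well, whose span begins just beyond the first, and that locus had 1.79 and 2.27 TPM. Tpi1, which interconverts the triose phosphates, stood at 397 and 387 TPM.

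Gapdh (chromosome 6, 125161715 to 125166467), which oxidises glyceraldehyde phosphate and is widely used as a reference gene, was the highest member at 1452 and 1441 TPM. Most of that level was assigned to a transcript with no coding sequence. Gapdh-208, a 483-base processed transcript, held 992 and 986 TPM, or 68.4% of the gene in each animal. The full-length Gapdh-201 of 1272 bases held 435 and 429 TPM. In transcripts of protein-coding type only, Gapdh had 443 ± 4.5 TPM and was no longer the highest member, below Aldoa at 1353 ± 30 and Pkm at 686 ± 0.80 TPM. By the second transcript table the leading transcript was Gapdh-207, of 471 bases, with 941 and 920 TPM, and Gapdh as a whole stood at 1950 and 1949 TPM, 1.35 times the level in the gene table. The animals were within 1% of each other in both tables, whereas the tables differed in the total and in the transcript that led.

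Pgk1, the phosphoglycerate kinase encoded on the X chromosome, stood at 232 and 235 TPM. Pgam1, the brain form of phosphoglycerate mutase, stood at 277 and 281 TPM. Both had nearly all of their level in 1 transcript, with 99.7% for Pgk1-201 and 99.4% for Pgam1-201 on average.

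Among the isoenzyme shares, that of enolase moved most between the 2 quantifications. Eno2 (chromosome 6, 124760053 to 124769673), neuron-specific enolase, stood at 539 and 575 TPM. Eno1 (chromosome 4, 150236721 to 150248879), the form of most other cells, stood at 222 and 213 TPM. Eno2 thus held 71.9% ± 1.5 of the enolase TPM in the gene table. By the second transcript table Eno1 stood at 419 and 403 TPM, 1.89 times as high, and the Eno2 share was 56.6% ± 0.31. There a 345-base coding transcript, Eno1-208, took 200 and 170 TPM, and it had 0 in the first transcript table. Eno2 was the higher gene in both animals by either table as long as the copies of Eno1 were left out.

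The genome also holds near-identical copies of Eno1 to which reads can be shared out. Eno1b, an annotated protein-coding copy, had 6222 and 4947 counts (179 and 171 TPM), and a further copy, Gm4735, had 2265 and 1857 counts. Set beside the 8746 and 7014 counts of Eno1, the copies held 49.2% of the joint counts in both libraries, and 43.0% and 43.1% in the second transcript table. With the copies added to Eno1, an alternative chosen after the data were seen, the Eno2 share was 53.7% ± 1.8. In the second transcript table the order turned once the copies were added: Eno1 with its copies came to 618 and 596 TPM against 541 and 530 TPM for Eno2, an Eno2 share of 46.9% ± 0.27. Which enolase led thus depended on the table and on whether the copies were added to Eno1. Between the tables the counts of Eno1 moved less than its TPM. Eno1 had 9891 and 7963 counts in the second transcript table, where its mean TPM was 1.89 times that in the gene table. The copies had 7456 and 6032 counts there, against 8487 and 6805 in the gene table. The part of the short Eno1 transcript that led in the second transcript table was not tested.

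For Gapdh the annotation holds 43 genes of which at least 50% of the 31-base words also occur in Gapdh transcripts, mostly processed pseudogenes. Together these held 7.61% and 8.61% of the joint counts in the gene table, and 29.0% and 26.9% in the second transcript table. Most of that gap came from Gm7336, with 192 and 87.9 counts in the first and 12138 and 9225 in the second. In the gene table the copy of Mpc1 held a larger share, 10.0% and 11.9%, and the copies of Pgk1, Gpi1, Pgam1 and Ldhb held smaller ones. The copies of Pgam1 and Pgk1 had no counts in the second transcript table. The deposited posterior SD of the count, which reflects doubt in read assignment, stayed under the square root of the count for all 39 genes, at most 0.897 times it for Gapdh. The plot of levels in the 2 quantifications shows where the tables part.

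**Figure D3:**
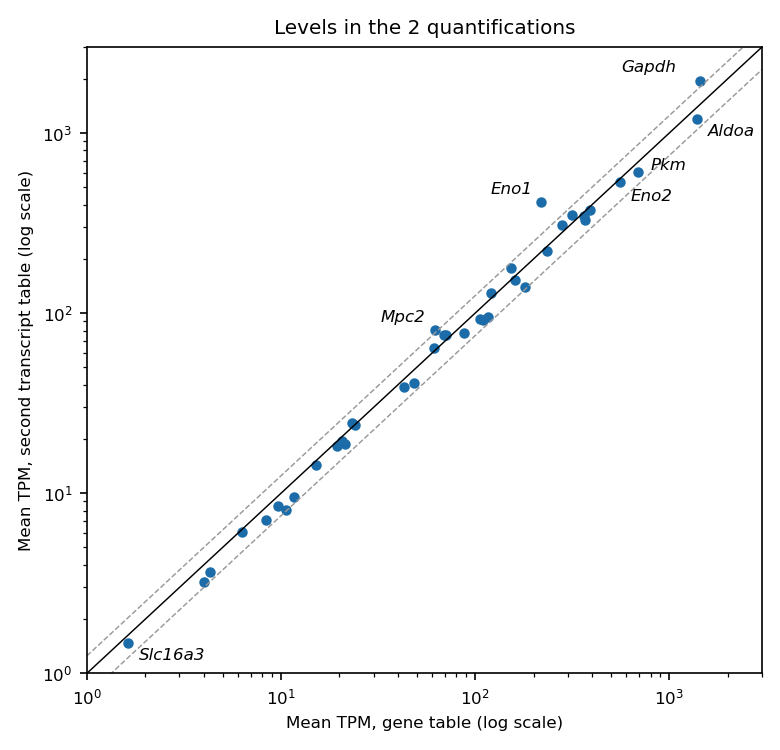
Mean TPM of each of the 39 genes in the gene table (horizontal, log scale) and the second transcript table (vertical, log scale), with the line of equal values and dashed lines at 25% above and below it. Of the 39 points, 36 lie within the dashed lines, and Gapdh, Eno1 and Mpc2 lie above them at 1.35, 1.89 and 1.29 times.

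Lactate dehydrogenase is built from the subunits of Ldha, which favours lactate production in muscle, and Ldhb, which is prominent in heart and neurons. Ldhb (chromosome 6, 142490249 to 142507957) stood at 313 and 320 TPM, and Ldha (chromosome 7, 46841475 to 46855627) at 149 and 157 TPM. Ldhb held 67.4% ± 0.46 of their sum, and the order was the same in both animals. Ldha-202 held 95.2% of the Ldha level on average.

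The lactate carriers were far below the enzymes. Slc16a7 (MCT2, the high-affinity carrier of neurons) stood at 17.5 and 21.6 TPM. Slc16a1 (MCT1, found on glia and blood vessels) stood at 13.4 and 9.76 TPM. Slc16a3 (MCT4, the low-affinity carrier of astrocytes) stood at 1.93 and 1.33 TPM, from 64 and 46 counts. The order Slc16a7, Slc16a1, Slc16a3 held in both animals. Their sum hardly moved, at 32.8 and 32.7 TPM, but the share of Slc16a7 was 53.2% in replicate 1 and 66.1% in replicate 2.

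The glucose transporters Slc2a3 (GLUT3, of neurons) and Slc2a1 (GLUT1, of blood vessels and astrocytes) had similar levels. Slc2a3 stood at 53.2 and 43.7 TPM and Slc2a1 at 45.7 and 40.1 TPM. Slc2a3 was the higher in each animal, but the gap of the means did not exceed the spread of Slc2a3. Both were lower in replicate 2.

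Entry of pyruvate into mitochondria had moderate levels. Mpc1 and Mpc2, which together form the mitochondrial pyruvate carrier, stood at 69.7 and 71.0 TPM and at 67.4 and 56.8 TPM. Their order was not resolved in the second transcript table. There the mean of Mpc2 was above that of Mpc1 by 4.54 TPM, but Mpc1 held 46.8% of their sum in replicate 1 and 50.5% in replicate 2. The 493-base Mpc2-203, which has no coding sequence, led Mpc2 in that table with 60.5% and 61.6%. Of the pyruvate dehydrogenase subunits, Pdha1 (E1 alpha, on the X chromosome) stood at 105 and 114 TPM. Pdhb (E1 beta) stood at 89.7 and 85.3 TPM and Dlat (E2) at 66.6 and 71.5 TPM. The subunits followed the order Pdha1, Pdhb, Dlat in both animals in the gene table. By the other table Dlat was above Pdhb in replicate 2, at 78.7 and 76.5 TPM.

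The pyruvate dehydrogenase kinases, which switch that complex off, were led by Pdk2. It stood at 62.2 and 60.5 TPM and held 54.8% ± 2.4 of the TPM of the 4 kinases. Pdk1 stood at 24.7 and 21.5 TPM and Pdk3 at 21.8 and 21.1 TPM, a pair not separated by their spread. Pdk4, the kinase induced by fasting and glucocorticoids, was the lowest at 8.57 and 4.08 TPM. Of the PFKFB genes, which set the amount of the allosteric activator of phosphofructokinase, Pfkfb2 stood at 23.4 and 24.5 TPM. Pfkfb3, the form with high kinase activity, stood at 22.6 and 18.6 TPM, and Pfkfb4 at 7.62 and 9.18 TPM. Pfkfb2 was the highest of these 3 in each animal. G6pdx, which diverts glucose phosphate into the pentose phosphate pathway, stood at 15.1 and 15.2 TPM.

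In glycogen metabolism the phosphorylases, which release glucose units, were together above the synthase and the branching enzyme. This rested on Pygb, as Pygm was not separated from the synthase Gys1 by its spread and was below it in replicate 1. Pygb, the brain glycogen phosphorylase, stood at 116 and 96.7 TPM and Pygm, the muscle form that astrocytes also express, at 9.03 and 12.3 TPM. Pygb held 90.8% ± 2.8 of the phosphorylase TPM. Gys1, glycogen synthase, stood at 9.86 and 9.42 TPM, and Gbe1, the branching enzyme, at 3.26 and 4.72 TPM. The phosphorylases summed to 117 ± 11 TPM and Gys1 with Gbe1 to 13.6 ± 0.72 TPM. That sum leaves out earlier genes of synthesis outside the 39, such as Ugp2 at 42.9 ± 1.4 TPM and Gyg at 22.7 ± 2.1 TPM. The plot of isoenzyme shares brings these families together.

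**Figure D4:**
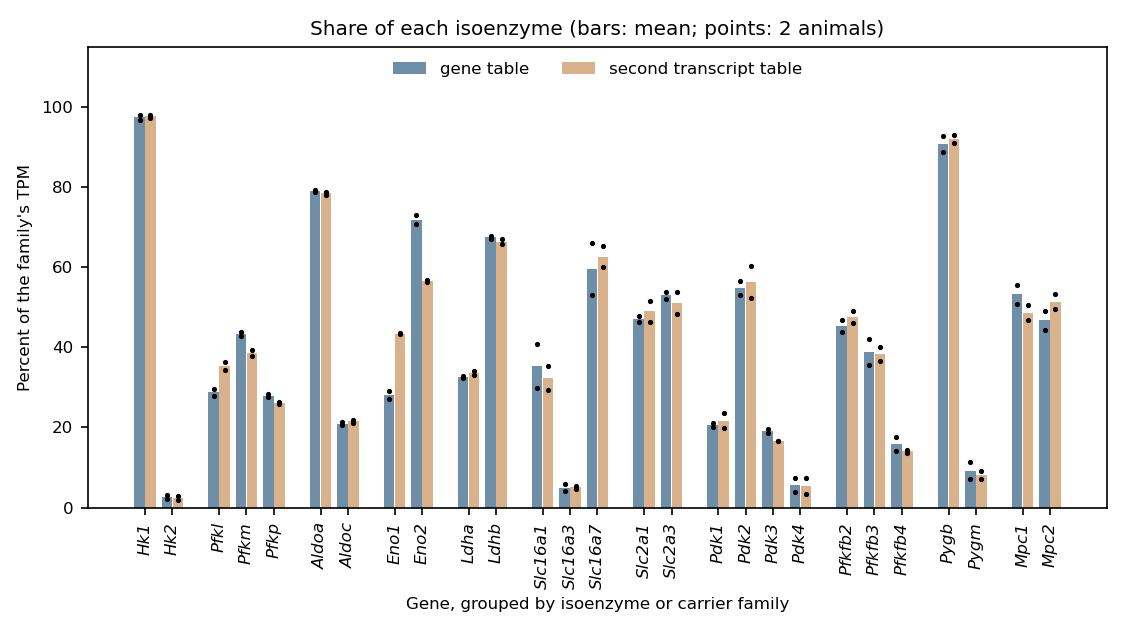
Percent of each family's TPM held by each isoenzyme or carrier, with bars for the mean and points for the 2 animals, in the gene table (blue) and the second transcript table (tan). Hk1, Aldoa, Pygb and Ldhb dominate their families in both tables, and the largest gap between tables is in enolase, where Eno2 held 71.9% and 56.6%.

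Ordered by mean level, the 39 genes form 38 neighbouring pairs, and 22 of these gaps exceeded the spread of both genes with the same sign in both animals. The 16 unresolved gaps were mostly in the lower range, such as Mpc1, Dlat, Mpc2 and Pdk2 (70.3, 69.1, 62.1 and 61.4 TPM) and Pfkfb2, Pdk1, Pdk3, Pfkfb3 and Slc16a7 (24.0, 23.1, 21.4, 20.6 and 19.5 TPM). Within families, 19 of 22 gaps were resolved, all but Pfkl and Pfkp, Slc2a1 and Slc2a3, and Pdk1 and Pdk3.

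The leading transcript was of protein-coding type for 38 of the 39 genes in either table, the exceptions being Gapdh in the first and Mpc2 in the second. It held a median of 71.5% of the gene's TPM over the 39 genes. It held at least 90% in 8 genes and under 50% in 9, among them Pfkfb4, Pfkfb2 and Slc16a7. Transcripts of protein-coding type held a median of 86.6%, at least 90% in 18 genes and under 70% in 11. The 2 transcript tables named the same leading transcript for 32 genes and another one for Eno1, Gapdh, Gbe1, Hk1, Mpc2, Pfkfb4 and Slc16a7. The reference is that of C57BL/6J, so reads from the CAST/EiJ allele with mismatches can be lost, and this was not tested.

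Between the 2 animals the members differed little. No member differed at least 2-fold in scaled counts, where 1.1% of the 14434 genes tested did, nor at least 1.5-fold, where 5.22% did. With shares that low over all genes, finding none among 39 does not set the members apart. The counting interval of the ratio, an exact 95% Clopper-Pearson interval that covers counting error only, excluded a ratio of 1 for 23 of the 39 genes (59.0%). Over all genes tested that share was 44.3%. Such an interval narrows as counts rise, and the members had a higher median level than all detected nuclear protein-coding genes. No genes of like level were compared for this share, so it does not set the members apart. Of the 23 genes, 10 were higher in replicate 2 (18.7% of all genes tested were) and 13 lower (25.6%). The median log2 ratio of replicate 2 over replicate 1 was -0.01 for the 39 genes and -0.02 for all genes. The median size of the log2 ratio, without its sign, was 0.08 for the 39 genes and 0.14 for all. That size depends on level: among the 18 members with a mean of at least 100 TPM it was 0.06, at most 0.19, and among 1016 nuclear protein-coding genes at that level it was 0.07. Among the 21 members below 100 TPM it was 0.19, and no set of other genes at their level was compared. Scaling by the spike-ins moved the median of all genes by -0.24, and 33 members were then lower in replicate 2 by the same interval, beside 66.4% of all genes.

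The 5 members that differed most were all of low level: a kinase, a lactate carrier, a PFKFB enzyme, the glycogen branching enzyme and a hexokinase. Pdk4 (chromosome 6, 5483351 to 5496309) had 410 and 243 counts, a log2 ratio of -0.49 with an interval from -0.73 to -0.26. Slc16a1 (chromosome 3, 104638668 to 104658462) had 1226 and 744 counts, a log2 ratio of -0.46 with an interval from -0.60 to -0.33. Pfkfb3 (chromosome 2, 11471433 to 11554077) had a log2 ratio of -0.45 with an interval from -0.57 to -0.34. These 3 were the farthest lower in replicate 2. In the other direction Gbe1 (chromosome 16, 70313949 to 70569716), with 177 and 215 counts, had 0.53 with an interval from 0.25 to 0.83. Hk2 (chromosome 6, 82725025 to 82774454), with 302 and 316 counts, had 0.32 with an interval from 0.09 to 0.56.

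Both glucose transporters were also lower in replicate 2, Slc2a3 by -0.25 and Slc2a1 by -0.21, as were Pdk1 at -0.24, Mpc2 at -0.22 and Pygb at -0.18. Among the abundant enzymes the 3 phosphofructokinase genes were each higher in replicate 2, Pfkl at 0.19, Pfkm at 0.09 and Pfkp at 0.08, and Aldoc at 0.13. Gpi1 at -0.09, Eno1 at -0.06 and Tpi1 at -0.05 were lower in replicate 2. The intervals of Gapdh (-0.02), Pkm (-0.01), Eno2 (0.02), Ldhb (0.01), Pgk1 (0.02) and Pgam1 (0.01) held a ratio of 1. Of the 23 genes whose interval excluded 1, all had the same sign in the second transcript table, and 22 excluded 1 there too, the exception being Ldha. The plot of ratios with their intervals shows how close most members were.

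**Figure D5:**
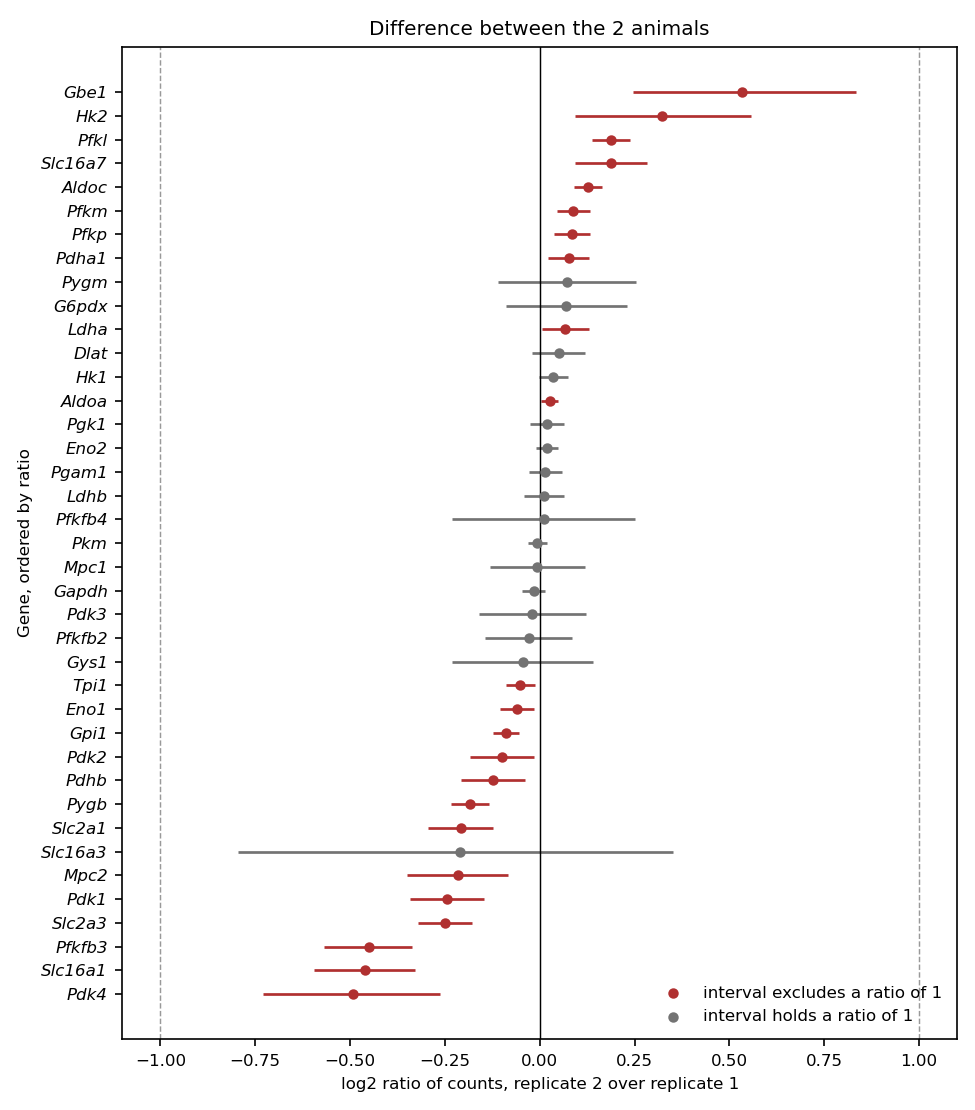
log2 ratio of scaled counts, replicate 2 over replicate 1, for the 39 genes in order, with bars for the exact 95% counting interval and dashed lines at 2-fold. The intervals of 23 genes (red) exclude 0, and the ratios run from -0.49 for Pdk4 to 0.53 for Gbe1, all inside the 2-fold lines.

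Markers of some cell types moved between the animals as well. Cldn5, of the vessel wall that also carries Slc2a1 and Slc16a1, had a log2 ratio of -0.31 with an interval from -0.51 to -0.12. The 3 endothelial markers summed to 60.1 and 56.5 TPM, and of them 1 was lower and none higher. Aqp4, of astrocyte endfeet, had -0.27, while the other 3 astrocyte markers ranged from -0.08 to 0.18. All 5 choroid plexus markers were at least 2-fold higher in replicate 2, Ttr by 4.81 on the log2 scale. Neuronal markers moved too. All 3 inhibitory markers were lower in replicate 2 (Gad1 -0.09, Gad2 -0.15, Sst -0.19) and all 3 excitatory ones higher (from 0.05 for Slc17a7 to 0.22 for Nrgn), each with an interval that excluded 1. Markers of hippocampal fields went both ways. Wfs1 of CA1 at 0.57, C1ql2 of dentate granule cells at 0.43 and Bok of CA3 at 0.43 were higher in replicate 2. Mpped1 of CA1 at -0.05, Stxbp6 of dentate granule cells at -0.10 and Cpne4 of CA3 at -0.17 were lower. The interval of Prox1, also of dentate granule cells, held a ratio of 1 (-0.06). Among the neuron-linked members Slc2a3 had -0.25, Slc16a7 0.19, Ldhb 0.01 and Eno2 0.02. The part of these cell types in the members' ratios was not tested.

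For low genes the ratio also depended on whether it was taken from counts or from TPM. The log2 ratios from both differed by a median of 0.04, but by over 0.25 in 5 genes. Pdk4 was the only member at least 2-fold apart in TPM, with a log2 ratio of -1.07. Its main transcript Pdk4-201, of 3484 bases, stood at 5.38 and 4.08 TPM. The short Pdk4-202 (412 bases) and Pdk4-203 (573 bases) had 1.70 and 1.48 TPM in replicate 1 and 0 in replicate 2, and few reads on a short transcript weigh heavily in TPM. For Gbe1 the leading Gbe1-206 took 77.2% of the gene in replicate 1 and 32.8% in replicate 2, so its transcript make-up is uncertain at these counts. The leading transcript of Pfkfb3, Pfkfb3-201, took 49.8% and 28.7%.

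The promoters of the 3 genes that were farthest lower in replicate 2 are shown so that their sequence can be set side by side. Each is the 250 bases before an annotated start, from RefSeq on GRCm38.p6, in the direction of transcription. Capitals mark every match to ACGTG on either strand (ACGTG or CACGT), the core bound by hypoxia-inducible factors, which lies within the E-box CACGTG that is matched on both strands at once.
Slc16a1, chr3:104638414-104638663, plus strand: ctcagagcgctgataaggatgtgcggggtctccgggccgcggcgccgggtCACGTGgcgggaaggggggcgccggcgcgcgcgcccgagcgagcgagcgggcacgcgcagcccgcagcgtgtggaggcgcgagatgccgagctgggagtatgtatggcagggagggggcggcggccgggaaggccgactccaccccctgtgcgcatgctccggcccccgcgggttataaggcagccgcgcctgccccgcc
Pfkfb3, chr2:11553930-11554179, minus strand: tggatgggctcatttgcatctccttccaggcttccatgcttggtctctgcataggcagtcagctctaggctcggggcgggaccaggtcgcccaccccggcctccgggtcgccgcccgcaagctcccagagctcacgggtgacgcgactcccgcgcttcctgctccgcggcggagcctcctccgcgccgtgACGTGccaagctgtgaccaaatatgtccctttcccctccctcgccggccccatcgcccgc
Pdk4, chr6:5496279-5496528, minus strand: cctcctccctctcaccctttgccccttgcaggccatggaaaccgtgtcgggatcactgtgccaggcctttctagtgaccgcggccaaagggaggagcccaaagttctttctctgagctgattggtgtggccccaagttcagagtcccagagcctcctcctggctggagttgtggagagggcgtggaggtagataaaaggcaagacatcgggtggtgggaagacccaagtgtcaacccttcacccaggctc

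The Slc16a1 window held an E-box, the printed Pfkfb3 window held 1 match to ACGTG, and the Pdk4 window held none. Pfkfb3 has a second RefSeq start, on chromosome 2 with a window from 11502091 to 11502340, and that window held an E-box. RefSeq windows were matched for 37 of the 39 genes, all but Slc16a7 and Slc2a3. Of their 54 windows 21 held ACGTG on either strand (38.9%), against 16.6% of the 32851 windows of all genes. Windows of 1 gene can overlap and hold the same site, as in Aldoa. Counted by gene, 17 of the 37 held it (45.9%), against 18.5% of 27025 genes. The genes compared were not matched for level, base content or number of windows, and a gene with more windows has more chances to hold a match. CACGTG was found in 11.1% of member windows and 6.02% of all windows. These are matches of letters, and no binding was measured here.

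Counting without strand could mix reads of overlapping genes, and the library kit is directional, but whether strand entered the counting is not stated in the labels or headers. Of the 39 genes, 17 overlap a gene on the opposite strand, and in 8 of these the partner had at least 50 counts on average. Examples are Gapdh with Iffo1 (1737 and 1588 counts) and Gys1 with Ruvbl2 (583 and 417 counts).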

How the data were processed

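Total RNA libraries of 2 animals were analysed from a gene table and 2 transcript tables each, on mm10 with GENCODE M21, per the file notes deposited with the samples. Per the file headers, the columns of the gene table and of the first transcript table are those RSEM writes, and the second transcript table looks like kallisto output. Aligner and versions: not given in the sources used here. The authors deposited expected counts, in which reads that match several features are shared out, and which were rounded before ratios were taken. The authors also deposited estimated counts in the second transcript table. TPM was deposited per effective length over all entries, spike-ins included. The gene table's FPKM, also deposited, served 1 alternative. Each transcript's percent of its gene, deposited too, was recomputed from TPM. A posterior SD of every count, a signal on the scale of counts, was deposited by the authors.

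Expected counts of annotated genes totalled 34147402 and 28356913. Spike-ins (0.178% and 0.212% of counts), and the 26248 numeric identifiers and phiX (83 and 71 counts), stayed out of library sizes. Levels are TPM, as mean ± SD. A gap between genes was stated if larger than either gene's SD and of equal sign in each animal. Ratios used edgeR 4.0.16 with TMM scaling and a prior count of 2 over all genes with a mean count of at least 50. A 2-fold difference also needed an exact Clopper-Pearson 95% interval that excluded 1. The ratio step was tested on simulated data. Near-identical copies were genes with at least 50% of their 31-base words in a member's transcripts, a limit set after seeing the data.

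The 39 members, the 86 further pathway genes and all lists were chosen with earlier results of these data known. All members were to be named. Of the further genes, those named were the 2 highest and the 1 lowest of each list and any that met the 2-fold criterion. Copies were named at a mean count of at least 50, and others, chosen after their values were seen, are Gm4735, Gm7336, Ugp2 and Gyg. Alternatives were DESeq2 1.42.0 size factors, total and spike-in scaling, other minimums, FPKM, the second transcript table, coding transcripts only, copies added to members and each library alone.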

Additional observations from a re-analysis of the deposited data

How the results depend on the processing

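With 2 libraries, the order of levels and the ratios could not be recomputed without either one, since 1 library gives no SD and no ratio. No paired analysis was possible because the libraries form 1 group. No member reached 2-fold under any scaling or in the second transcript table. Spike-in scaling lowered the median log2 ratio of members to -0.25 and that of all genes by 0.24, so 1 member was then higher and 33 lower in replicate 2, where 66.4% of all genes were lower. Of 132 recomputed gaps within families, 119 kept their side, 4 weakened, 6 strengthened and 3 reversed in the mean. These were Eno2 over Eno1 (Eno1 higher by 71.8 TPM in the second transcript table with copies added), Mpc1 over Mpc2 (-4.54 TPM in the second transcript table) and Pdk1 over Pdk3 (-5.09 TPM in coding transcripts only). The reversed Mpc gap was not of equal sign in the animals, and the Pdk gap was unresolved in the gene table. In the second transcript table the shares were 38.6% for Pfkm, 78.5% for Aldoa, 56.6% for Eno2 and 66.4% for Ldhb. There Slc2a3 held 51.0%, Mpc1 48.6% and Pkm M1 46.4%. In coding transcripts only the shares were 98.2% for Hk1, 51.8% for Pfkm, 69.2% for Eno2, 60.6% for Slc2a3 and 67.1% for Mpc1. With copies added Eno2 held 53.7% and Mpc1 61.7%, where Mpc1 had 53.2% ± 3.3 in the gene table. With copies added in the second transcript table Eno2 held 46.9% and Ldhb 66.7%. The other gene shares listed here stayed as in that table or within 1 SD of the main value. The median share of the leading transcript was 62.3% in the second transcript table, 92.0% among coding transcripts, and 70.8% to 74.4% in single libraries. Apart from the stated effect of added copies and omitted transcripts, the cause was not tested.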

Other observations

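Of 86 further genes of carbohydrate metabolism in 10 lists, 69 were detected, and 23 of the 69 tested (33.3%, against 44.3% of all genes) had a ratio interval that excluded 1, with 11 higher and 12 lower in replicate 2. The redox shuttles, which carry the electrons of glycolysis into mitochondria, were the most abundant list, with Mdh1 at 442 and 426 TPM, Mdh2 at 200 and 201 TPM and Slc25a13 lowest at 1.93 and 1.89 TPM. Bsg, the chaperone of the lactate carriers Slc16a1 and Slc16a3, stood at 266 and 281 TPM, and Emb, the partner of Slc16a7, at 16.5 and 16.3 TPM. In glycogen metabolism the lysosomal glucosidase Gaa stood at 174 and 180 TPM and Pgm2l1 at 135 and 132 TPM, while Gys2, the liver synthase, had 0 and 1 counts. The pentose phosphate list ran from Tkt at 82.7 and 89.5 TPM and Taldo1 at 52.0 and 55.6 TPM down to Rpia at 6.25 and 6.13 TPM.

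Among other genes of pyruvate dehydrogenase, Dld stood at 52.5 and 55.9 TPM, the phosphatase Pdp1 at 36.6 and 30.8 TPM, and the testis form Pdha2 had no counts. Of the other hexose transporters, Slc2a13 stood at 33.4 and 34.6 TPM and Slc2a6 at 17.8 ± 0.26 TPM (mean ± SD, n = 2), and Slc2a2 had no counts. The gluconeogenic list was led by Pcx, pyruvate carboxylase of astrocytes, at 33.2 and 41.6 TPM and G6pc3 at 32.0 and 33.1 TPM, with no counts for G6pc. A count of 0 allows up to 3 counts. Tigar, a phosphatase of the same sugar phosphates as the PFKFB genes, stood at 15.3 and 11.4 TPM and Pfkfb1 at 0.82 and 1.44 TPM. Of the transcription factors, Epas1 stood at 46.1 and 45.6 TPM, Hif1a at 28.1 and 28.8 TPM and Mlxipl lowest at 2.20 and 2.22 TPM.

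Of the 14 other glycolytic isoenzymes 8 were detected, led by Bpgm at 32.3 and 36.2 TPM and Adpgk at 9.27 and 8.56 TPM. The testis forms Gapdhs, Pgk2 and Ldhc had no counts. Pgam2, the muscle phosphoglycerate mutase, was the only further gene to meet the 2-fold criterion. It had 80 and 137 counts, 5.13 and 10.5 TPM, and a log2 ratio of 1.02 with an interval from 0.63 to 1.45. The ratio was 1.20 in the second transcript table, 1.01 with DESeq2 size factors and 0.78 under spike-in scaling, where it no longer reached 2-fold. The muscle markers Ckm (1 and 5 counts), Acta1 (91 and 110 counts) and Myh4 (5.12 and 7.55 counts) were low, and their part in this ratio was not tested.

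Slc16a8 (MCT3), a lactate carrier of retinal pigment epithelium and choroid plexus, had 0 counts in replicate 1 and 19 in replicate 2. With replicate 1 set to the 3 counts that 0 allows, replicate 2 was 7.58-fold higher in scaled counts. That value leaves out the counting error of the 19 counts. The exact counting interval of the log2 ratio began at 2.48 and had no upper limit. The gene was below the minimum mean count and was not among the genes tested. The choroid plexus marker Ttr had 498 and 11764 counts in the same libraries. The part of that tissue in the Slc16a8 counts was not tested.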
